A study of Mus musculus with 19 samples.

Results

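Disease-associated microglia genes are transcripts that microglia, the resident immune cells of the brain, raise when they meet amyloid, dying neurons, demyelinated axons or the debris of ageing tissue. Here 10 such genes, Cst7, Itgax, Clec7a, Spp1, Gpnmb, Axl, Csf1, Cd9, Hcar2 and Gpr84, were followed across 19 RNA-seq libraries of mouse hippocampal CA1. The genes were given by name and found by symbol through their Ensembl identifiers among the 48709 genes counted. They were picked with the results of these comparisons already known and are treated here as selected on the log2 fold changes of all 3 comparisons, so their levels, fold changes and counts of calls are a description and no p is read for them. All 10 passed the filter on low values (5 or more reads in 50% or more of the libraries), as did 19286 genes in all.

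The libraries came from male C57B/6J wild-type mice, single housed, and are numbered separately in the labels, which do not state that each is 1 animal. The p-values measure only the spread between these libraries, which may be technical. The dorsal hippocampus had been injected on both sides with lipid nanoparticles before water maze training. Young mice (3 months, n = 6) and old control mice (16.5 months, n = 6) received scrambled control oligonucleotides, and old anti-miR-mix mice (16.5 months, n = 7) received 3 inhibitors together, against miR-146a-5p, against miR-148a-3p and against miR-181a-5p. No group was left without an injection, so an effect of the injection itself on these genes cannot be told apart from the level of any group. The design gives 3 comparisons: old control against young for age, old anti-miR-mix against old control for the inhibitors, and old anti-miR-mix against young, which shares its libraries with both of the others.

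Microglia reach the disease-associated state along a programme in which the lipid-sensing receptor TREM2 and its adaptor TYROBP signal through the kinase SYK, homeostatic genes such as P2ry12 and Tmem119 recede, and genes of phagocytosis, lysosomes and lipid handling come up. Itgax (CD11c) and Clec7a (dectin-1) are surface proteins by which such cells are commonly recognised. Spp1 (osteopontin) and Csf1 are secreted signals, Gpnmb, Axl and Cd9 are membrane proteins, Cst7 is a protease inhibitor of lysosomes, and Hcar2 and Gpr84 are receptors for small metabolites. Several of them are also made by other brain cells: Axl and Csf1 by astrocytes, Cd9 by oligodendrocytes and astrocytes, Spp1 by some neurons and border macrophages.

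The treatment consisted of short oligonucleotides complementary to 3 microRNAs. The sequences are shown because the matches described below were sought to the complements of their seeds. The mature microRNAs (RefSeq annotation, GRCm38.p6) have their seed, positions 2 to 8 counted from the 5′ end, in capitals.
miR-181a-5p: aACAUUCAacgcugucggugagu
miR-146a-5p: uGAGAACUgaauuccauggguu
miR-148a-3p: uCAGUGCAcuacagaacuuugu
The inhibitors as listed in the study's supplement follow, with the bases that pair with the seed in capitals. The first pairs with microRNA positions 3 to 23, the second with positions 2 to 21 and the third with positions 3 to 21.
inhibitor of miR-181a-5p: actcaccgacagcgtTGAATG
inhibitor of miR-146a-5p: acccatggaattcAGTTCTC
inhibitor of miR-148a-3p: caaagttctgtagTGCACT
negative control oligonucleotide: taacacgtctatacgccca
The negative control held 0 of the seed complements.

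Among the 10 genes, 2 carried a match to the complement of a seed in their annotated 3′ UTR, Axl and Csf1. The Axl UTR of 1389 bases had AGTTCTC, the complement of the miR-146a-5p seed, at bases 235 to 241 and TGCACTG, that of miR-148a-3p, at bases 1234 to 1240. The Csf1 UTR of 2111 bases had TGCACTG at bases 788 to 794 and again at 897 to 903. Positions are counted from the first base of the UTR, and the matches are in capitals with their flanks.
Axl, miR-146a-5p: ttagagttcaaAGTTCTCaaagatgatga
Axl, miR-148a-3p: agcctgtgcgaTGCACTGggaatgcctgc
Csf1, miR-148a-3p, first: aaggaagccatTGCACTGtgaatactgaa
Csf1, miR-148a-3p, second: cctcggcttctTGCACTGagctggcctca
No match to TGAATGT, the complement of the miR-181a-5p seed, was found in any of the 10 UTRs, and the other 8 genes held none of the 3 heptamers. Over the 15339 tested genes with an annotated 3′ UTR, 35.0% held at least one of the heptamers, namely AGTTCTC in 12.4%, TGCACTG in 14.9% and TGAATGT in 18.1%. The median UTR was 1165 bases over those genes and 624.5 bases over the 10 genes. A match is a description of the letters, and its lack says nothing about the microRNA.

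The base composition upstream of the genes was compared in the same way. RefSeq promoters, from 250 bases before to 50 bases after an annotated start, were at hand for 9 of the 10 genes (11 promoters). The 9 genes were counted by gene and all mouse promoters by promoter, so these shares are in unlike units. TGANTCA, the letters bound by AP-1, occurred on either strand in the promoters of 3 of the 9 genes and in 7.81% of 32851 mouse promoters of the same length. GAGGAA, the core bound by PU.1, the master factor of myeloid cells, occurred in 3 of the 9 genes (Spp1, Clec7a and Axl) and in 28.3% of all promoters. CACGTG, the E-box read by MITF and TFE factors that drive lysosomal genes, was found in 0 of the 9 genes and in 7.15% of all promoters. The promoters with the AP-1 letters, picked after their positions were seen, are printed with the letters in capitals. How near to the start these letters lie in other mouse promoters was not compared. The first base of the motif lay 6 bases before the start in Cst7, 56 before in Itgax and 8 after in Gpnmb.
Cst7, chr2:150570165-150570464, plus strand: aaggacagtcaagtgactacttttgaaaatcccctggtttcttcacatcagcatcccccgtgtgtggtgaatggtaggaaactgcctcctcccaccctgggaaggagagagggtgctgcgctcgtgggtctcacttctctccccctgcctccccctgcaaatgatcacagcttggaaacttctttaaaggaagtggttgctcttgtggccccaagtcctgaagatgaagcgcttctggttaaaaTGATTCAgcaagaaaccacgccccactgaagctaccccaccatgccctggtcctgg
Itgax, chr7:128129300-128129599, plus strand: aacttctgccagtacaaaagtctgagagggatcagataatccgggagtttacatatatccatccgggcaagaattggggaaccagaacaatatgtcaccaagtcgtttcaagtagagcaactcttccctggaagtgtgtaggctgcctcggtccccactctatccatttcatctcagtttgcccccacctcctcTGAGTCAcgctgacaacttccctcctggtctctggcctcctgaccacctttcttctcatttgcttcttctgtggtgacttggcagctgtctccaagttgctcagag
Gpnmb, chr6:49036268-49036567, plus strand: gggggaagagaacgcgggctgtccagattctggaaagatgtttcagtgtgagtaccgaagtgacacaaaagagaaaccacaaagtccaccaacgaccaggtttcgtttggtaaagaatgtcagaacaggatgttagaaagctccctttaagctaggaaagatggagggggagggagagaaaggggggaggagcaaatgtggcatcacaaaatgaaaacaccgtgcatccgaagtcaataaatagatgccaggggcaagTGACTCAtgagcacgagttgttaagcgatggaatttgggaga
These are matches of letters in a short window and not measured binding sites.

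Library depth was 26653511 to 38908947 reads. Some of the libraries call for care. A second, log-scale table of the authors differed from the scaled counts by a slope times a whole number from 1 to 4 per library. The number was worked out from that table and is here called the processing group. The sources give neither the number nor its meaning. Over groups 1 to 4, old anti-miR-mix libraries numbered 1, 2, 3 and 1, old control ones 2, 2, 0 and 2, and young ones 1, 1, 2 and 2, so group 3 lacked an old control. Old control 5 and 6 were far closer to each other than any other pair (chi-square per degree of freedom 2.18 over 12780 genes, against 6.10 for the next pair), though above the sampling noise. They were counted as 2 libraries, and whether they share an animal or a pool was not tested. Without processing group 3, edgeR called 0 of all genes for old anti-miR-mix against old control (1588 at an unadjusted p under 0.05), so every call named for that comparison was lost in that fit.

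Ordered by these genes, the 19 libraries had old anti-miR-mix ones at the top, with young and old control ones mixed below. When each gene was put on a common scale and the 10 averaged, old anti-miR-mix 4, 3, 2, 5 and 7 ranked highest. Old control 3 came sixth, old anti-miR-mix 1 seventh, old control 4 eighth and old anti-miR-mix 6 ninth. Young 3 came next, above 4 of the 6 old control libraries, and young and old control libraries alternated in part down to old control 1. The lowest were young 4, young 6 and young 1. The 5 high old anti-miR-mix libraries belonged to processing groups 2 and 3, and the 2 low ones were the single old anti-miR-mix libraries of groups 1 and 4. Summed over the 10 genes, the level was 139 to 202 CPM (reads of a gene scaled by library size) in young, 153 to 230 in old control and 199 to 412 in old anti-miR-mix libraries.

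**Figure D1:**
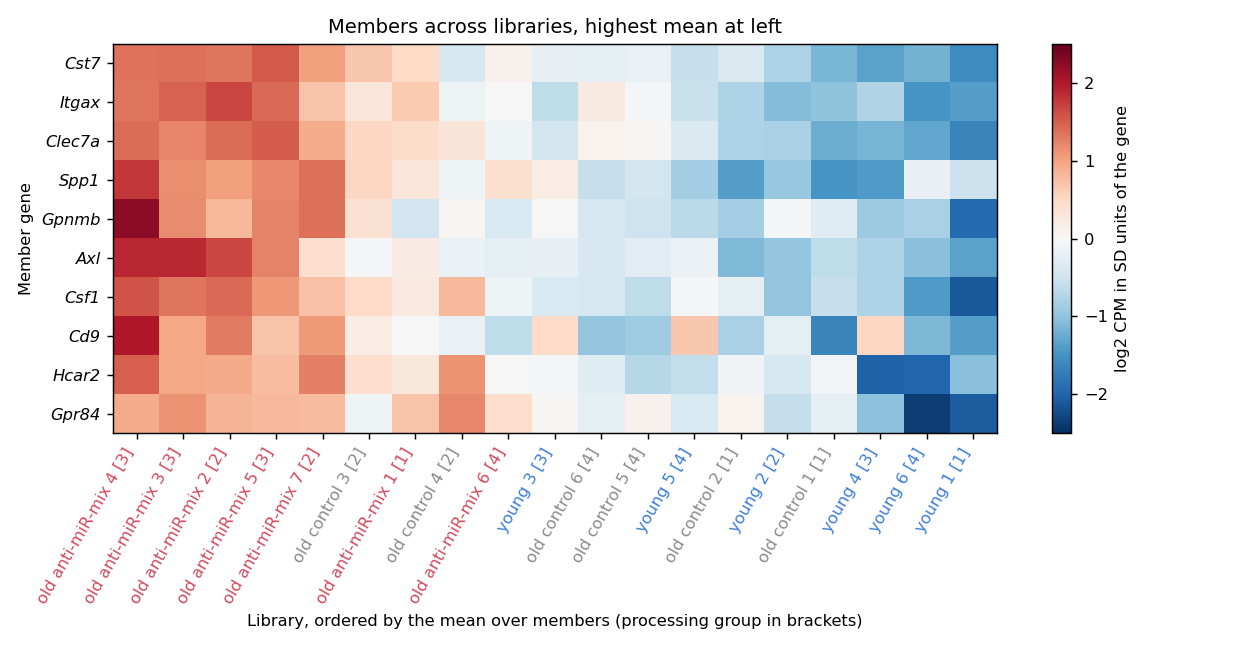
Heat map of the 10 genes (lines) in the 19 libraries (columns, ordered by the mean over the genes, with the processing group in brackets). Colour gives log2 CPM in SD units of each gene. The 5 leftmost columns are old anti-miR-mix libraries 4, 3, 2, 5 and 7, while old anti-miR-mix 1 and 6 stand among the old control libraries.

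Cst7 encodes cystatin F, an inhibitor that restrains cathepsins C, H and L within lysosomes of immune cells. It lies on chromosome 2 (150570415 to 150578944, plus strand, GENCODE annotation of GRCm38). Its log2 CPM ran from -1.37 through a median of -0.42 to 0.80 in young, from -0.69 through 0.66 to 2.23 in old control, and from 1.33 through 3.30 to 3.62 in old anti-miR-mix libraries. These values rest on 9 to 56, 21 to 123 and 78 to 408 reads. Young and old control libraries overlapped, old control 3 reached into the old anti-miR-mix range, and 5 of 7 old anti-miR-mix libraries exceeded every old control library. The fitted log2 fold change (edgeR, ± SE) was 1.15 ± 0.50 for age and 2.10 ± 0.41 for the inhibitors, and 3.25 ± 0.45, or 9.52-fold, for old anti-miR-mix against young. The last separated all 7 from all 6 libraries.

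Itgax encodes the integrin alpha X chain, which pairs with the beta 2 chain to form complement receptor 4 (chromosome 7, 128129547 to 128150657, plus strand). Log2 CPM was -0.42 to 0.90 in young with a median of 0.40, 0.27 to 2.16 in old control with a median of 1.61, and 1.74 to 4.15 in old anti-miR-mix libraries with a median of 3.65. Old control 1 and 2, both of processing group 1, lay within the young range, and the other 4 old control libraries lay above it. Of the 7 old anti-miR-mix libraries, 6 exceeded every old control library and all exceeded every young one. The log2 fold changes were 1.16 ± 0.42, 1.92 ± 0.35 and 3.08 ± 0.38 for age, the inhibitors and old anti-miR-mix against young, in that order.

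Clec7a encodes dectin-1, a receptor for beta-glucans that signals through SYK and CARD9 (chromosome 6, 129461591 to 129472779, minus strand). The annotation lists it as a polymorphic pseudogene, a class for genes that are intact in some strains and disrupted in others. Its log2 CPM had a lowest, median and highest value of -0.06, 0.90 and 1.80 in young, 0.53, 2.40 and 3.05 in old control and 2.15, 4.07 and 4.47 in old anti-miR-mix libraries. As for Itgax, old control 1 and 2 lay within the young range. Old anti-miR-mix 6 lay below 4 of the 6 old control libraries. The log2 fold changes were 1.22 ± 0.44 for age, 1.62 ± 0.38 for the inhibitors and 2.84 ± 0.41 for old anti-miR-mix against young.

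Spp1, the gene of the secreted phosphoprotein osteopontin, behaved otherwise with age (chromosome 5, 104435118 to 104441050, plus strand). Young libraries spanned 2.61 to 4.63 log2 CPM with a median of 3.50, and old control libraries spanned 2.52 to 5.05 with a median of 3.75, so that old control 1 lay below every young library and old control 3 above every one. Old anti-miR-mix libraries spanned 4.78 to 6.66 with a median of 5.89, above all young libraries and, in 5 of 7, above all old control libraries. The log2 fold change was 0.16 ± 0.40 for age, 1.94 ± 0.38 for the inhibitors and 2.10 ± 0.38 for old anti-miR-mix against young. Without old control 3 the age value was -0.21. A same-strand transcript, Gm42793, overlaps the locus but had a mean of 1 read.

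Gpnmb encodes a transmembrane glycoprotein of phagocytes laden with lipid (chromosome 6, 49036546 to 49070929, plus strand). Log2 CPM was 1.69 to 3.48 in young, 2.70 to 3.83 in old control and 3.04 to 5.53 in old anti-miR-mix libraries, with medians of 2.80, 3.15 and 4.57. The last group was split: old anti-miR-mix 1 and 6 lay within both other groups and the other 5 above all of them. Its log2 fold changes were 0.35 ± 0.35, 1.23 ± 0.33 and 1.57 ± 0.34 for age, the inhibitors and old anti-miR-mix against young.

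**Figure D2:**
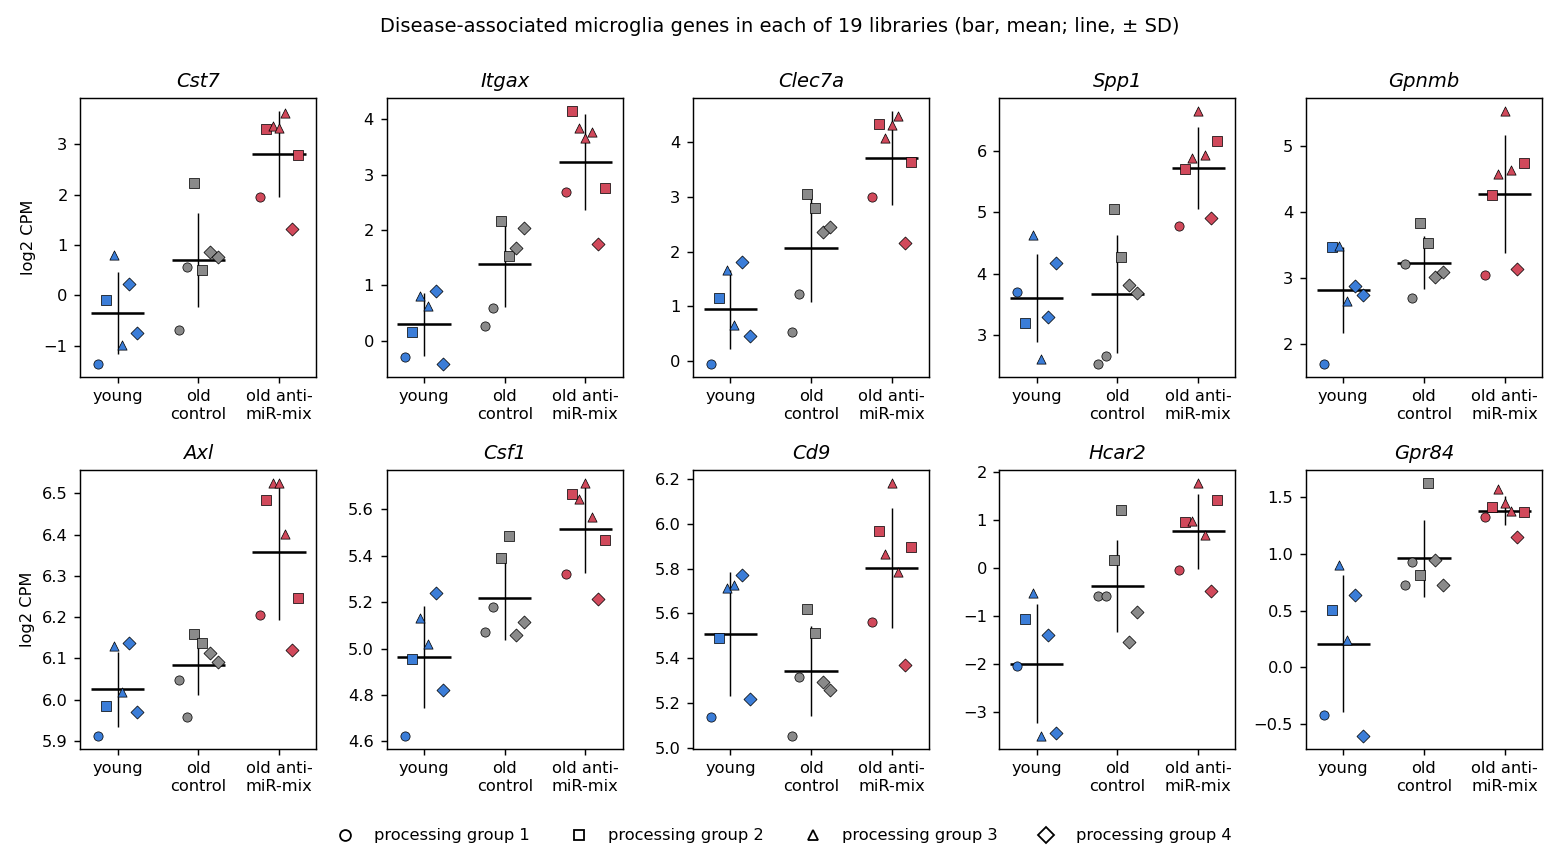
Log2 CPM (y axes, each on its own scale) of each of the 10 genes in young (n = 6), old control (n = 6) and old anti-miR-mix (n = 7) libraries. Each point is 1 library, shapes mark processing groups, bars are means and lines ± SD. For Cst7 the old anti-miR-mix points run from 1.33 to 3.62, all above the young maximum of 0.80.

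Axl, a receptor tyrosine kinase for GAS6 and protein S that serves the uptake of dying cells, moved far less (chromosome 7, 25757273 to 25788705, minus strand). It was at 5.91 to 6.14 log2 CPM in young, 5.96 to 6.16 in old control and 6.12 to 6.53 in old anti-miR-mix libraries. Of the 7 old anti-miR-mix libraries 6 exceeded every library of the other groups, old anti-miR-mix 6 being the exception. Its log2 fold change for the inhibitors was only 0.28 ± 0.06, or 1.22-fold, beside 0.06 ± 0.06 for age and 0.34 ± 0.06 for old anti-miR-mix against young. Axl rested on at least 1673 reads in every library, and its SE was 0.06 where that of Cst7 was 0.41 to 0.50.

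Csf1 encodes the growth factor that keeps microglia alive through CSF1R (chromosome 3, 107741048 to 107760469, minus strand). Its medians were 4.99, 5.15 and 5.57 log2 CPM by group (young lowest, old anti-miR-mix highest), with ranges of 4.62 to 5.24, 5.06 to 5.49 and 5.21 to 5.72 in which neighbouring groups overlapped. Log2 fold changes were 0.25 ± 0.10, 0.30 ± 0.10 and 0.55 ± 0.10 for age, the inhibitors and old anti-miR-mix against young.

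Cd9, a tetraspanin of membranes and of extracellular vesicles, was the only one of the 10 genes with a negative fitted value for age (chromosome 6, 125460266 to 125494791, minus strand). Log2 CPM was 5.14 to 5.77 in young, 5.05 to 5.62 in old control and 5.37 to 6.18 in old anti-miR-mix libraries. The log2 fold changes were -0.18 ± 0.13 for age, 0.47 ± 0.12 for the inhibitors and 0.29 ± 0.12 for old anti-miR-mix against young. Transcripts of myelin, made by oligodendrocytes as Cd9 can be, were compared. Of 6 oligodendrocyte genes 4 fell with age (among them Mog by 0.55 ± 0.10 on the log2 scale, edgeR adjusted p = 0.00398; Cnp by 0.49 ± 0.11, adjusted p = 0.0162; Mag by 0.43 ± 0.12, adjusted p = 0.0484). Under the inhibitors 0 of the 6 passed the edgeR test, 6 had an unadjusted p under 0.05, and the median log2 fold change was 0.25. Against young 0 of the 6 passed, 3 had an unadjusted p under 0.05 and the median was -0.19, where Cd9 was at 0.29. The 4 calls for age became 1 without processing group 3, or with the processing group as a factor and old control 5 and 6 as 1 library. What part oligodendrocytes have in the level of Cd9 was not tested. Opposite-strand transcripts at the Cd9 locus had means of 1 and 8 reads, against 976 or more for Cd9.

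Hcar2, a receptor for beta-hydroxybutyrate and niacin, was the least abundant (chromosome 5, 123863570 to 123865499, minus strand). It had 1 to 21 reads in young, 9 to 73 in old control and 21 to 111 in old anti-miR-mix libraries. In log2 CPM this was -3.48 to -0.53, -1.53 to 1.21 and -0.47 to 1.78. Its fitted age difference was the highest of the 10 at 1.75 ± 0.60 and also the least precise, with 1.06 ± 0.45 for the inhibitors and 2.81 ± 0.54 for old anti-miR-mix against young. Without old control 4, Hcar2 was at 1.19 for age and 1.63 for the inhibitors. Young 4 and young 6 were the lowest, at -3.48 and -3.43.

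Gpr84, a receptor for medium-chain fatty acids, was at -0.60 to 0.90 log2 CPM in young, 0.72 to 1.63 in old control and 1.15 to 1.57 in old anti-miR-mix libraries (chromosome 15, 103308235 to 103310612, minus strand). Old control 4 at 1.63 was higher than every old anti-miR-mix library, while the other 5 old control libraries were below every one. Its log2 fold changes were 0.72 ± 0.21 for age, 0.40 ± 0.19 for the inhibitors and 1.11 ± 0.20 for old anti-miR-mix against young. Without old control 4 they were 0.54 for age and 0.57 for the inhibitors.

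Per length of transcript the genes differed widely in abundance. In old anti-miR-mix libraries Spp1 had a mean of 34.9 ± 15.2 RPKM (reads scaled by exon length and library size, SD, n = 7), Cd9 27.7 ± 5.02 and Axl 16.4 ± 1.85, of which Spp1 and Cd9 did not differ beyond their SDs. Csf1 followed at 8.70 ± 1.10 and Cst7 at 8.004 ± 3.69, then Clec7a at 5.59 ± 2.55, Gpnmb at 3.44 ± 1.97 and Itgax at 2.21 ± 1.08. Gpr84 at 1.48 ± 0.13 and Hcar2 at 0.95 ± 0.49 were lowest. From Csf1 downward, the mean ± SD ranges of neighbours in this order overlapped. In young libraries Cd9 led with 22.6 ± 4.15 RPKM, followed by Axl at 12.95 ± 0.82 and Spp1 at 8.15 ± 4.14, whereas Cst7 was at 0.84 ± 0.52 and Itgax at 0.26 ± 0.10. In such bulk samples, more cells of a type and more RNA per cell cannot be told apart.

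Across the 3 comparisons the genes fell into a group with wide differences (Cst7, Itgax, Clec7a, Spp1, Gpnmb, Hcar2) and one with narrow ones (Axl, Csf1, Cd9), with Gpr84 between them. For old control against young, edgeR called 0 of the 10 genes, with 6 at an unadjusted p under 0.05 and 1, Gpr84, called by DESeq2. Over all 19286 genes 1.32% were called higher and 2.67% in either direction, and in 1.25% every old control library exceeded every young one, which held for 0 of the 10. The median log2 fold change was 0.53 over the 10 genes and 0.01 over all tested genes. With the processing group as a factor, 4 of the 10 were called for age (Itgax, Clec7a, Hcar2 and Gpr84), beside 371 of all 19286 genes. The 4 became 0 when old control 5 and 6 were also counted as 1 library.

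For old anti-miR-mix against old control, all 10 fitted values were positive, with a median of 1.15 against 0.00 over all tested genes. edgeR called 5 of the 10 genes higher, Cst7, Itgax, Clec7a, Spp1 and Axl, where 0.669% of all genes were called, all of them higher. Every old anti-miR-mix library exceeded every old control library in 0 of the 10 genes and in 0.425% of all genes. These calls depended on the fit, and were 4 with the processing group as a linear term, where 93 of all genes were called. They fell to 0 with the processing group as a factor or without processing group 3, where the fitted values of Cst7, Itgax, Clec7a and Spp1 were still 1.20 to 1.63 on the log2 scale, and to 1 (Itgax) with old control 5 and 6 counted as 1 library. Leaving out 1 library in turn gave 0 (without old control 2) to 7 calls (without old anti-miR-mix 1, or without old anti-miR-mix 6), with 1 without old control 1, 5 or 6 or old anti-miR-mix 4, 2 without old anti-miR-mix 3 or 5 and 3 without old anti-miR-mix 2. Clec7a lost its call in 15 of the 19 fits, Axl in 8, Cst7 in 7, Spp1 in 5 and Itgax in 1.

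Within processing groups the direction of old anti-miR-mix against old control was the same with few exceptions, at uneven size. The genes are treated as selected on these same libraries, so the directions are a description and not a check. The share of all genes that were higher within each processing group was not counted. In group 1 (1 old anti-miR-mix and 2 old control libraries) all 10 genes were higher, by 0.08 to 2.25 log2 CPM. In group 2 (2 and 2 libraries) all 10 were higher by 0.13 to 1.67. In group 4 (1 and 2 libraries) 8 of 10 were higher, with differences from -0.25 for Clec7a and -0.12 for Itgax to 1.16 for Spp1. Group 3, with 3 old anti-miR-mix libraries, lacked an old control, so treatment and processing group cannot be told apart there.

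For old anti-miR-mix against young, 9 of the 10 genes were called higher, all but Cd9, where 4.57% of all genes were called higher and 6.2% in either direction. Every old anti-miR-mix library exceeded every young library in 6 of the 10 (Cst7, Itgax, Clec7a, Spp1, Hcar2 and Gpr84) and in 1.79% of all genes. The median log2 fold change was 1.83 against 0.00 over all tested genes. The count stayed at 9 whichever library was left out, and was 5 without processing group 3. It shares its libraries with both other comparisons and is not independent of them.

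**Figure D3:**
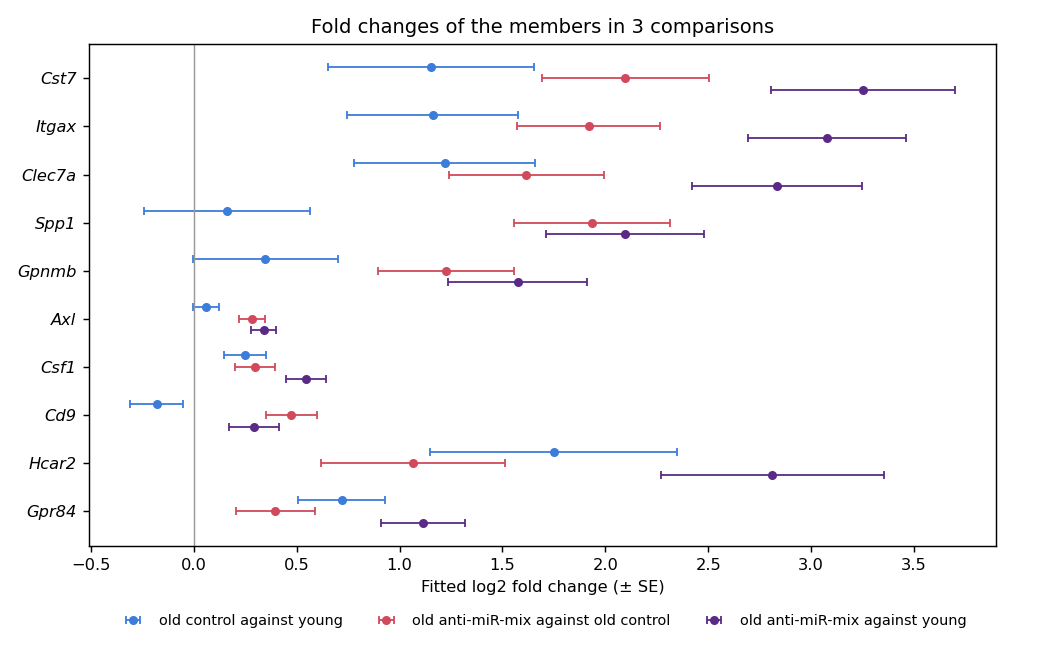
Fitted log2 fold change (x axis, points, with ± SE as bars) of each of the 10 genes for old control against young, old anti-miR-mix against old control, and old anti-miR-mix against young. Spp1, Axl and Cd9 have age values of 0.16, 0.06 and -0.18 beside 1.94, 0.28 and 0.47 under the inhibitors.

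To see how the 10 genes stood among the transcripts of microglia, 15 genes that microglia express in any state served as a reference (among them Aif1, Csf1r, Itgam, Spi1, C1qa, Laptm5, Ptprc, Fcer1g and Irf8). All 15 were detected in every library, with at least 86 reads each. Their mean log2 CPM was 4.31 ± 0.25 in young, 4.6 ± 0.14 in old control and 5.11 ± 0.24 under the inhibitors (SD). With age 0 of the 15 passed the edgeR test, 10 had an unadjusted p under 0.05 and 0 were called by DESeq2, while 9 passed with the processing group as a factor and 5 with that factor and old control 5 and 6 as 1 library. Under the inhibitors 10 of the 15 rose, among them Ptprc (CD45, log2 fold change 0.78 ± 0.16, adjusted p = 0.0259), C1qa (0.63 ± 0.13, adjusted p = 0.0259), Irf8 (0.74 ± 0.15, adjusted p = 0.0248) and Fcer1g (0.58 ± 0.12, adjusted p = 0.0282). With the processing group as a factor, or with old control 5 and 6 as 1 library, 0 of the 15 passed, and without old control 1, 2, 5 or 6, or old anti-miR-mix 2, 3, 4 or 5, 0 or 1 did. All 15 rose in old anti-miR-mix against young, by a median of 0.83.

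Subtracting the mean of the 15 reference genes within each library shows which of the 10 genes moved beyond them. For old anti-miR-mix against young, the difference that remained was 2.37 for Cst7, 2.13 for Itgax and 1.96 for Clec7a, each with all 7 old anti-miR-mix libraries above all 6 young ones. It was 1.95 for Hcar2, 1.32 for Spp1, 0.65 for Gpnmb and 0.37 for Gpr84, with overlap. Csf1 was lower by 0.25 relative to the reference genes, with overlap, and Axl by 0.47 and Cd9 by 0.51, with every old anti-miR-mix library below every young one. Thus the 10 genes did not keep one ratio to the reference genes. The reference mean itself was 3.99 to 4.62 in young and 4.81 to 5.34 in old anti-miR-mix libraries, without overlap. A gene of unchanged level therefore falls on this scale. Before the subtraction the fitted values of Axl and Cd9 were positive, at 0.34 and 0.29. How many of all genes separate in either direction on this scale was not counted.

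The same subtraction for the inhibitors left 1.59 for Cst7, 1.54 for Spp1, 1.34 for Itgax, 1.14 for Clec7a, 0.62 for Hcar2 and 0.53 for Gpnmb. It left -0.05 for Cd9, -0.09 for Gpr84, -0.21 for Csf1 and -0.23 for Axl. For Csf1 every old anti-miR-mix library lay below every old control library on this scale. Before the subtraction its fitted value was positive, at 0.30 ± 0.10, so Csf1 rose less than the reference genes and did not fall itself. With age, Cd9 changed the most consistently on this scale, with a difference of -0.46 and all 6 old control libraries below all 6 young ones. These differences are descriptions, and a part of the RNA of Axl, Csf1 and Cd9 can come from cells other than microglia.

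**Figure D4:**
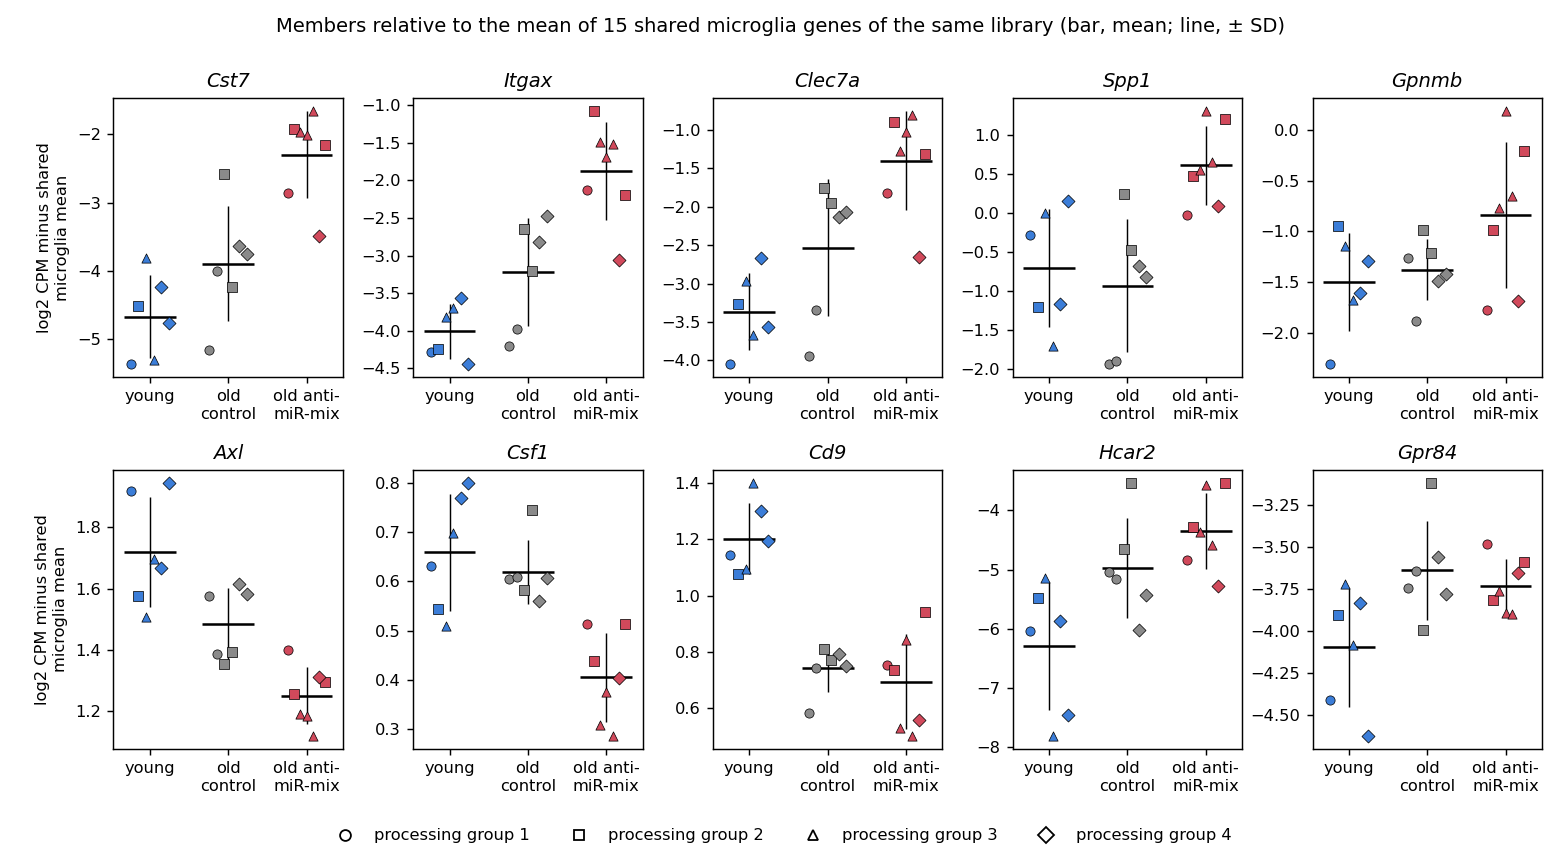
Log2 CPM of each of the 10 genes minus the mean log2 CPM of 15 microglia genes in the same library (y axes, each on its own scale), by group; points are libraries, shapes processing groups, bars means and lines ± SD. Cst7, Itgax and Clec7a stay higher in old anti-miR-mix than in young libraries, while Axl and Cd9 turn lower, by 0.47 and 0.51. The subtracted mean is itself higher in old anti-miR-mix libraries, at 5.11 against 4.31 in young ones.

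Among 29 other genes of activated microglia, 1 rose with age, 15 rose under the inhibitors and 21 rose in old anti-miR-mix against young, and 0 fell in any of the 3. The age count was 9 with the processing group as a factor, 5 with only the 2 groups in the fit, and 3 with DESeq2 or with the factor and old control 5 and 6 as 1 library. The list was put together with earlier results of these data known. The medians were 0.23, 0.66 and 0.81 on the log2 scale. Under the inhibitors the galectin gene Lgals3 rose by 2.00 ± 0.46 (adjusted p = 0.0457), the chemokine gene Ccl3 by 1.49 ± 0.34 (adjusted p = 0.0439), Ch25h, which makes 25-hydroxycholesterol, by 1.37 ± 0.31 (adjusted p = 0.0413), and the lysozyme gene Lyz2 by 1.25 ± 0.29 (adjusted p = 0.0448), all in edgeR. Lag3, an immune receptor, was the gene called for age, at 0.50 ± 0.11 (adjusted p = 0.0179). With the processing group as a factor the count under the inhibitors fell to 2, and with old control 5 and 6 as 1 library to 5, while the count against young stayed at 21 in both. It was 5 to 9 without old control 1, 2, 5 or 6, old anti-miR-mix 2, 3, 4 or 5, or young 5.

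The TREM2 receptor complex, singled out after its values were seen, was among these genes. Trem2 rose by 0.67 ± 0.11 under the inhibitors (adjusted p = 0.00773) and Tyrobp by 0.75 ± 0.11 (adjusted p = 0.00433), and Apoe, which encodes a lipid carrier that TREM2 binds, by 0.32 ± 0.07 (adjusted p = 0.0408). With the processing group as a factor the values were 0.53, 0.59 and 0.25, of which only Tyrobp passed in edgeR (adjusted p = 0.00838), and without processing group 3 none of the 3 did. Their age values of 0.40 ± 0.12, 0.32 ± 0.12 and 0.23 ± 0.07 did not pass (adjusted p = 0.0664, 0.150 and 0.0992).

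Of 14 homeostatic microglia genes 0 fell in any comparison, and 4 rose with age: P2ry13 by 0.41 ± 0.09 (adjusted p = 0.0188), Slc2a5 by 0.37 ± 0.09 (adjusted p = 0.0277), Cx3cr1, the fractalkine receptor, by 0.35 ± 0.07 (adjusted p = 0.0108) and Sall1, a transcription factor of microglial identity, by 0.19 ± 0.05 (adjusted p = 0.0395). The age count was 2 without old control 1, 3 or 5 and 1 without young 4 or without processing group 3. Under the inhibitors 1 rose, the Fc receptor-like gene Fcrls, by 0.62 ± 0.10 (adjusted p = 0.00773), and the median over the list was 0.11. All 14 fitted values were positive there, and 7 had an unadjusted p under 0.05 in edgeR. In old anti-miR-mix against young 10 of 14 rose, by a list median of 0.37. The summed level was 677 to 778 CPM in young, 771 to 797 in old control and 787 to 900 in old anti-miR-mix libraries. Bin1 and Rhob weigh most in this sum, at a mean log2 CPM of 8.04 and 7.73 in young libraries. Neither passed in any comparison. Under the inhibitors the homeostatic median was 0.11, the reference median 0.52 and the members' median 1.15. The members were selected on such values, so the lists are not ranked by them. No test of the difference between lists was run.

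**Figure D5:**
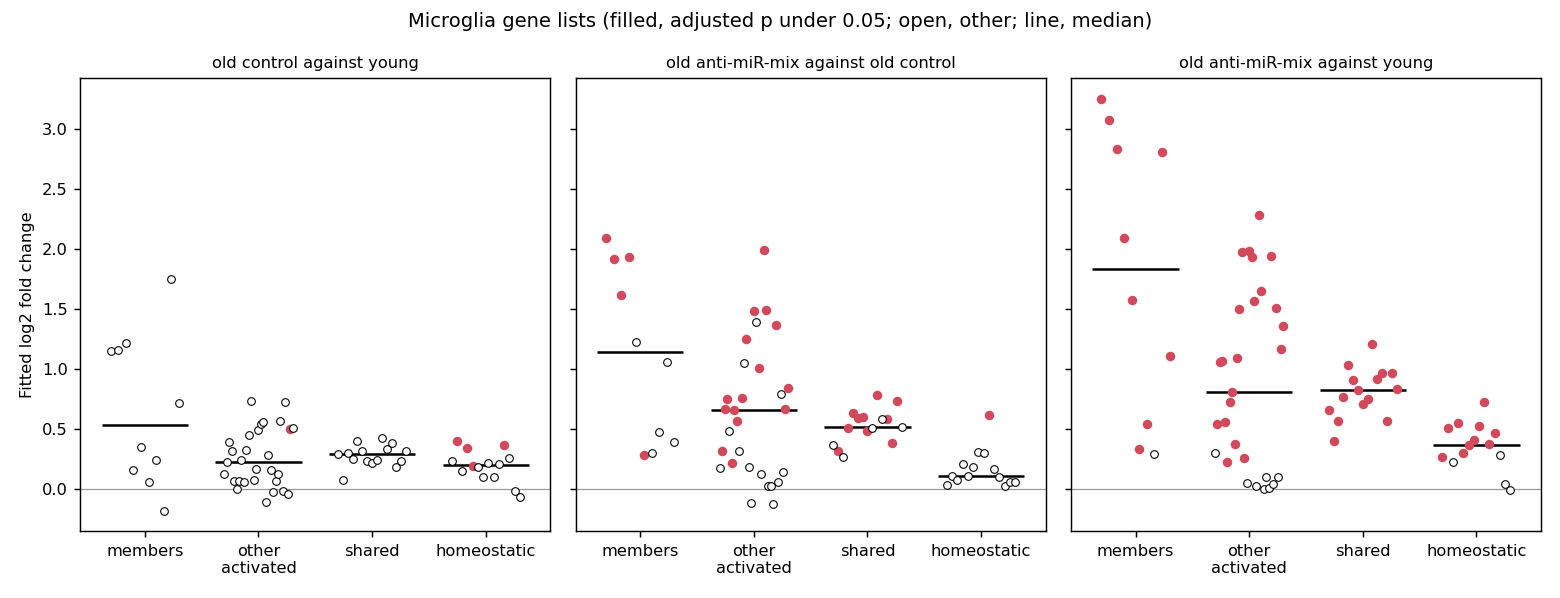
Fitted log2 fold change (y axis) of each gene in 4 microglia lists (members, the 10 genes of interest; 29 other activated; 15 shared; 14 homeostatic) for the 3 comparisons. Filled points had an edgeR adjusted p under 0.05 and lines are medians; in the middle panel the medians are 1.15, 0.66, 0.52 and 0.11.

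The molecules that the 10 genes act with were taken as a separate list of 25 receptors, ligands, substrates and regulators, of which 24 passed the filter. With age 1 rose, under the inhibitors 7 rose, and in old anti-miR-mix against young 10 rose; 0 fell. The 7 became 0 with the processing group as a factor or without processing group 3, 2 (Itgb5 and Ctsl) with old control 5 and 6 as 1 library, and 1 to 8 when 1 library was left out (1 without old control 2 or without old control 5), and the 10 became 6 without processing group 3. Itgb2, the beta 2 chain that pairs with the Itgax product, rose under the inhibitors by 0.86 ± 0.17 (adjusted p = 0.0206). For Clec7a, the kinase gene Syk rose by 0.42 ± 0.09 (adjusted p = 0.0276), while Card9 (0.32 ± 0.12, adjusted p = 0.296) and Plcg2 (0.33 ± 0.10, adjusted p = 0.169) did not pass.

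Of the cathepsins that cystatin F restrains, Ctsh rose by 0.59 ± 0.11 (adjusted p = 0.0190) and Ctsl by 0.25 ± 0.04 (adjusted p = 0.0102), and Ctsc was at 0.45 ± 0.14 (adjusted p = 0.167). Csf1r, the receptor of Csf1 and also a reference gene, rose by 0.32 ± 0.07 (adjusted p = 0.0276), and Il34, its other ligand, was at -0.01 ± 0.06. Among osteopontin receptors the integrin gene Itgb5 rose by 0.35 ± 0.07 (adjusted p = 0.0165), with Itgav at 0.12 ± 0.07, Itgb3 at 0.27 ± 0.11 and Cd44 at 0.69 ± 0.31, none of which passed.

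The ligands of AXL did not pass under the inhibitors, with Gas6 at 0.06 ± 0.05 and Pros1 at 0.29 ± 0.10. Its sister receptor Mertk was the partner called for age, at 0.20 ± 0.05 (adjusted p = 0.0434), and Tyro3 was at -0.09 ± 0.05. Of the tetraspanin partners of Cd9, Cd81 was at 0.09 ± 0.04, Ptgfrn at 0.19 ± 0.14 and Igsf8 at -0.02 ± 0.04 under the inhibitors, and none passed. Hcar1, a related receptor for lactate, was at 0.76 ± 0.51 with 4 to 54 reads per library. Of the lysosomal regulators Tfeb rose by 0.34 ± 0.07 (adjusted p = 0.0255), whereas Mitf at -0.04 ± 0.07 and Tfe3 at 0.03 ± 0.03 did not pass, and Tfec had at most 4 reads in a library.

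Markers of other cells were examined because several of the 10 genes are also expressed by macrophages, monocytes and dendritic cells. Of 9 border macrophage genes, 0 were called for age (2 at an unadjusted p under 0.05), 1 under the inhibitors and 2 in old anti-miR-mix against young. Siglec1 rose under the inhibitors by 1.64 ± 0.29 (adjusted p = 0.0115, and 0.132 with the processing group as a factor), Ms4a7 rose against young by 1.25 ± 0.29 (adjusted p = 0.0103), while the defining markers Mrc1, Lyve1 and Cd163 did not pass in any comparison. Their summed level was 23.9 to 34.3 CPM in young, 24.5 to 30.1 in old control and 26.7 to 44.0 in old anti-miR-mix libraries.

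Of 8 monocyte and neutrophil genes, 5 passed the filter and 3 rose in old anti-miR-mix against young: S100a9 by 2.84 ± 0.74 (adjusted p = 0.0231), S100a8 by 2.26 ± 0.62 (adjusted p = 0.0330) and Ccr2 by 1.43 ± 0.40 (adjusted p = 0.0332). Under the inhibitors 0 of the 5 passed in edgeR and 4 had an unadjusted p under 0.05. They rest on few reads: summed, 0.74 to 3.73 CPM in young, 0.47 to 4.58 in old control and 2.63 to 10.9 in old anti-miR-mix libraries, with Ly6g at 0 to 2 reads and Chil3 at 0 to 13. Their median log2 fold change under the inhibitors was 1.59. Without processing group 3, 0 of the 5 passed against young.

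The lymphocyte list had 0 of 6 tested genes past the threshold in each comparison, with 0, 1 and 4 at an unadjusted p under 0.05 for age, the inhibitors and against young, and summed to at most 5.64 CPM. Of 4 dendritic cell genes, Ccr7 rose against young by 2.30 ± 0.60 (adjusted p = 0.0227) on 2 to 87 reads in those groups, and Xcr1 had 0 to 13 reads. Reactive astrocyte genes were called in 1 of 7 for age (Osmr, 0.63 ± 0.15, adjusted p = 0.0294), 0 of 7 under the inhibitors, with 5 at an unadjusted p under 0.05, and 4 of 7 against young: Serpina3n by 0.97 ± 0.27 (adjusted p = 0.0321), Vim by 0.95 ± 0.21 (adjusted p = 0.00722), Osmr by 0.93 ± 0.15 (adjusted p = 0.000374) and Gfap by 0.77 ± 0.14 (adjusted p = 0.00124). Their summed level was 423 to 952, 693 to 1014 and 827 to 1479 CPM. The part of border macrophages, monocytes and reactive tissue in the levels of the 10 genes was not tested.

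Of 5 general astrocyte genes 1 rose against young (Slc1a3, 0.20 ± 0.05, adjusted p = 0.0119), of 4 CA1 pyramidal genes 1 fell against young (Wfs1 by 0.36 ± 0.10, adjusted p = 0.0366), and none of the endothelial, leptomeningeal, choroid plexus or dentate granule genes tested passed in edgeR. At an unadjusted p under 0.05 there were 3 of 4 choroid plexus genes for age, with a median log2 fold change of 0.71 and a spread from -1.60 to 2.08, and 2 of 5 astrocyte genes under the inhibitors. The CA1 markers Wfs1, Fibcd1, Mpped1 and Pou3f1 were present in every library with at least 1798 reads each. The dentate granule markers summed to 44.1 to 109 CPM, the CA1 markers to 639 to 952 CPM.

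Within the set, the genes followed each other across the libraries. Over the 45 pairs Pearson's r of log2 CPM across the 19 libraries was 0.57 to 0.97 with a median of 0.82, and the median was 0.69 after the group means were removed. Itgax with Clec7a had the highest r, 0.97, and Cd9 had the lowest median r with the other genes, 0.73. These points share group, depth and scaling, and the r values are a description.

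By the same measure, the genes outside the set most like its mean, among 15950 genes with a mean of at least 20 reads, were Dock2 (r = 0.991), Itgb2 (0.989), Ctss (0.984), Myo1f (0.982), Cd52 (0.978), Ccl3 (0.977), Plek (0.977), Mpeg1 (0.976), Laptm5 (0.972) and Tyrobp (0.970), over 19 libraries. For single genes the most alike differed. Cd9 had Lgmn at 0.942, Gltp at 0.941 and H2-D1 at 0.927, Gpnmb had Vim and Themis2 at 0.954 and Lgals3 at 0.949, and Gpr84 had C4b at 0.947 and Osmr at 0.934. Axl had Irf8 at 0.968, Itgax had Tyrobp at 0.968, and Hcar2 had Tlr13 at 0.934 and Osmr at 0.925. Csf1 had Cd52 at 0.968, Clec7a had Cd48 at 0.969, and Cst7 and Spp1 both had AU020206, at 0.971 and 0.911.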

How the data were processed

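Hippocampal CA1 RNA of male mice was sequenced as 19 polyadenylated, single-end libraries, which the labels do not state to be 1 per animal. Groups were taken from the library descriptions; the titles of young and old control libraries also begin with the name of the treatment. The authors aligned reads to mm10 with STAR 2.5.2b and deposited raw counts per Ensembl gene made with featureCounts of Subread 1.5.1, after FastQC 0.11.5; strand, multi-mapping and annotation release are not given in the sources used here, so overlapping genes can exchange reads. The deposited log2 table equalled log2(CPM + 1) of those counts less a slope times a whole number, 1 to 4, given to each library (largest deviation 3.4e-08). The numbers were used only as processing groups. All 19 count columns were assigned and 0 were left unassigned.

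A gene entered the test with 5 or more reads in 50% or more of the libraries (19286 of 48709). After TMM scaling, the quasi-likelihood test of edgeR 4.0.16 was run in R 4.3.3 with 3 groups in one fit, no covariate and Benjamini-Hochberg adjustment at 0.05. Log2 CPM used a prior count of 2. DESeq2 1.42.0 was an alternative. The code was tested on simulated data. Depth of 26653511 to 38908947 reads leaves a count of 0 open to up to 3 reads, which covers counting error only. Of the identifiers, 48349 matched the annotation.

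The members and all lists were chosen with earlier results of these data known. Named genes were the members, their partners, defining markers and up to 4 genes per other list with the widest fold change among those called. From each list, genes absent by symbol were left out: 1 of 30 other activated microglia genes was not analysed here. Values of some single list genes are not reported here.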

Additional observations from a re-analysis of the deposited data

Results flagged for a closer look

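Of 30 groups examined (10 genes in 3 groups), 1 held a library far from the rest: Gpr84 in old control 4, at 1.629 log2 CPM. The gap to the next library was 0.759 of the range of the 6 old control libraries, above the critical value of 0.625. Chance flags about 1 in 20 groups. Hcar2 was also highest in old control 4 among old control libraries, at 1.21 log2 CPM.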

How the results depend on the processing

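For the 10 genes, 1 was called for age with DESeq2 and 4 with the processing group as a factor (0 with that factor and old control 5 and 6 as 1 library), and 0 to 1 when 1 library was left out (1 without young 3), against 0 as reported. Under the inhibitors the 5 calls became 0 with the processing group as a factor, 0 with that factor and old control 5 and 6 as 1 library, 0 without processing group 3, 1 with old control 5 and 6 as 1 library, 3 with only the 2 groups in the fit, and 0 to 7 when 1 library was left out (0 without old control 2). With the processing group as a linear term, 4 of the 10 genes were called under the inhibitors, and 93 over all genes. Against young the 9 calls became 5 without processing group 3 and stayed at 9 without any 1 library. The sign of a fitted value was kept in all but 1 case, Spp1 for age without old control 3, at -0.21, where leaving out 1 library gave -0.21 to 0.43. Over all genes the 514 calls for age became 897 with DESeq2, 371 with the processing factor and 323 with no filter. They became 290 with old control 5 and 6 as 1 library, 221 with that and the processing factor, and 134 without processing group 3. Leaving out 1 library gave 212 (without young 4) to 691. The 129 calls under the inhibitors became 264 with DESeq2, 48 with only the 2 groups, 28 with old control 5 and 6 as 1 library, 9 with the processing factor, 4 with both, 0 without processing group 3 (1588 at an unadjusted p under 0.05 in edgeR) and 23 (without old control 5) to 247 (without old anti-miR-mix 1) when 1 library was left out. Moves of over 1.5 times came from leaving out old control 1, 2, 3, 5 or 6 or young 4 for age, and old control 1, 2, 5 or 6 or any old anti-miR-mix library but 7 for the inhibitors. The 1196 calls against young became 344 without processing group 3 and 892 to 1256 when 1 library was left out. The causes were not tested beyond the fewer libraries that some of these fits hold. The fits that leave out processing group 3, and those that combine the processing factor with old control 5 and 6 as 1 library, were chosen after seeing the data.

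Whether replicate numbers pair the libraries was not settled. Same-numbered libraries of different groups correlated at -0.17 to 0.214 over 18 pairs, with a median of 0.053 and 6 over 0.1. Differently numbered ones correlated at -0.273 to 0.394 over 102 pairs, with a median of -0.01 and 15 over 0.1. With the replicate block the calls among the 10 genes were 1, 7 and 10 for age, the inhibitors and against young, and over all genes 651, 249 and 1192.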
